A study of Danio rerio with 3 samples.

Results

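The *gsx1* or *ptf1a* progenitors of the zebrafish hindbrain at 24 hpf are cells with at least 5 unique molecular identifiers (UMIs) of *sox3* and at most 1 of *elavl3*, at least 2 of *gsx1* and *ptf1a* summed, and 0 of *dbx1a* and *dbx1b*. There were 132 such cells, hereafter members, among 968 progenitors by the *sox3* and *elavl3* limits, or 13.6% (11.5 to 16.0, Clopper-Pearson 95% interval), and 5.14% of the 2568 cells of the library. The other 836 progenitors were the cells for comparison. The 3 libraries of the study, of 16, 24 and 44 hpf, came from dissected hindbrains, with surrounding tissue, of wild-type LondonAB embryos grown at 25, 28.5 and 25 °C, and each was made from about 40 pooled tissues. No group carried a mutation or received a treatment. Each stage is 1 library without a replicate, so no test was made, and all intervals, exact Poisson for levels and exact conditional binomial for ratios, cover counting error only.

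The dorsoventral axis of the neural tube is divided into domains of progenitors, which differ in their transcription factors and give rise to different classes of neurons. *gsx1* and *gsx2* encode related homeodomain proteins of intermediate and dorsal progenitors, and *ptf1a* encodes a basic helix-loop-helix (bHLH) factor that in mouse directs dorsal progenitors to an inhibitory fate. *sox3* is a factor of dividing neural progenitors, *elavl3* an RNA-binding protein of early neurons, and *dbx1a* and *dbx1b* are homeodomain factors of a domain ventral to the *gsx1* cells.

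The members had a median of 8112 UMIs per cell and the other progenitors 8139.5. The library held 25733058 UMIs, and the 16 and 44 hpf libraries 28566809 and 12351301. A total of 8 cell barcodes occurred at both 16 and 24 hpf, 1 of them that of a member, and 11 at both 24 and 44 hpf, none of a member. Some progenitors by the limits carried RNA of tissues beside the hindbrain. At least 5 UMIs summed over markers of epidermis, head mesenchyme, vasculature, neural crest and blood were found in 24 members and in 201 other progenitors (24.0%). Epidermis markers summed to between 0 and 54 UMIs in a member and between 0 and 9291 in another progenitor. All 10 of them were detected in members. Of head mesenchyme markers 1 of 10 (*foxc1a*) was at 0 in members, and of vasculature 2 of 6 (*cdh5*, *tie1*). Of blood 3 of 5 (*hbbe1.1*, *gata1a*, *alas2*) and of the floor plate 3 of 8 (*foxa2*, *ntn1b*, *arxa*) were at 0. The other markers of these lists were detected. Roof plate markers, 4 of 10 at 0, summed to 533 CPM in members and 343 CPM in others. Floor and roof plate markers were not part of the limit of 5 UMIs. Results against the other progenitors are therefore also given without the cells that reached this limit, as 108 members against 635 others.

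The rule used *gsx1* and *ptf1a*, and their values are a description of who was chosen. The members were largely *gsx1* cells. *gsx1* was found in 130 members, with 0 UMIs in the lowest, 6 in the median and 42 in the highest cell, and *ptf1a* in 15, with a highest value of 6. There were 117 members with *gsx1* alone, 13 with both genes and 2 with *ptf1a* alone. At this stage the name of these progenitors thus held for *gsx1* and for few cells for *ptf1a*. In all, 127 cells would have been chosen on *gsx1* and 6 on *ptf1a*. Of the 86 *ptf1a* UMIs of the library 32 lay in members, and 38 in cells with at least 2 *elavl3* UMIs. For *gsx1*, members held 44.7% of 2633 UMIs. Among the 968 progenitors 14 had both genes, where independent detection would give 6.29, while 39 had both *gsx1* and a *dbx1* gene, where it would give 59.2. Cells with more UMIs have a higher chance of showing any pair of genes, which these expected numbers leave aside.

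**Figure D1:**
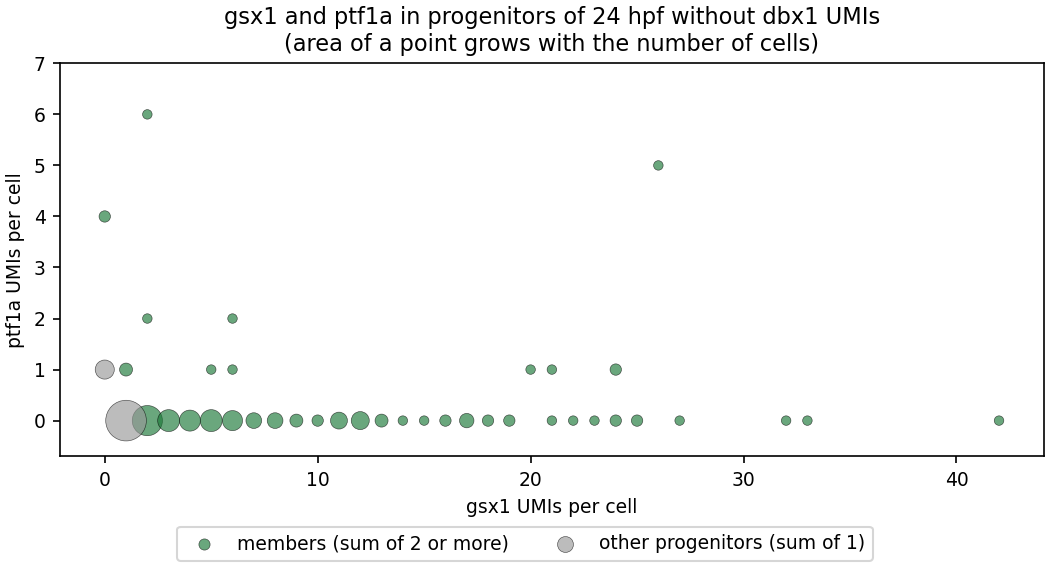
UMIs of *gsx1* (horizontal) and *ptf1a* (vertical) per cell in progenitors of 24 hpf without *dbx1* UMIs, with members in green and cells with a single UMI in grey. The area of a point grows with the number of cells. Most members lie on the horizontal axis, and 2 lie on the vertical one, at the same point.

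For *lbx1b* the limit of 2 UMIs lay within a gradual change, whereas *neurog1* differed sharply between 1 and 2 UMIs. There were 25 members with exactly 2 UMIs and 49 progenitors just outside, with 1 UMI and no *dbx1*. The level of *lbx1b*, a homeobox gene known in mouse for dorsal interneurons, was 26.01 CPM, UMIs of a gene scaled to a common total of the group, at 0 UMIs of the rule genes, 167 CPM at 1, 298 CPM at 2, 399 CPM at 3 to 5 and 576 CPM at 6 or more. For *neurog1*, a proneural bHLH gene, the levels were 143, 169, 17.0, 17.2 and 49.7 CPM in the same order. A further 23 progenitors had at least 2 UMIs of *gsx1* and *ptf1a* but also *dbx1*, 15 of them with 1 *dbx1* UMI. In these *lbx1b* was at 474 CPM (400 to 559), about as in members (481 CPM), and *zic2b* at 197 CPM (150 to 254) against 511 CPM (472 to 552).

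Genes other than those of the rule were compared as the UMIs summed over each group, in CPM, and called where the ratio was at least 1.5 or at most 1/1.5. Against all other progenitors, 5640 genes with at least 10 CPM over both groups were compared. In members 207 of them were higher (3.67%) and 644 lower (11.4%). A call rests on the ratio alone and not on its interval. Genes with few UMIs in members can thus pass the limits by counting error. Without the cells carrying markers of other tissues, 5280 genes were compared, 283 were higher (5.36%) and 370 lower (7.01%). Of the calls made against all other progenitors, 142 of the higher and 197 of the lower genes were called again in that comparison. The number of lower genes thus depended on these cells.

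Medial transcription factors were the group that stood highest. Against all others 6 of 7 compared members of this list were higher, where 3.67% of all genes were, 1 lay between the limits, and the median ratio was 2.56 against 1.01 over all genes. Without cells carrying markers of other tissues it was again 6 of 7. Against all others, 5 of 20 dorsal factors were higher and 8 lower, with a median of 1.12. Of 19 ventral factors 3 were higher and 9 lower, with a median of 0.786. Over all genes 3.67% were higher and 11.4% lower. The counts for these dorsal and ventral lists include the cells carrying markers of other tissues. The list of medial factors and those of dorsal and ventral factors were largely taken from genes that the study named from these libraries, so their direction is not independent evidence.

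*lbx1b* was found in 119 of 132 members, with 0 UMIs in the lowest, 3 in the median and 22 in the highest cell, and in 16.6% of other progenitors, whose median was 0. Its level was 481 CPM (443 to 521) in members and 54.6 CPM (49.7 to 59.9) in others, a ratio of 8.80 (7.78 to 9.97). The ranges over cells overlapped. In reference cells, which carry markers of epidermis, mesenchyme or vasculature and at most 1 *sox3* UMI, a UMI of *lbx1b* was found in 3.75% of 293 cells. With 5000 UMIs drawn from each cell, these shares were 75.7% of members, 12.3% of others and 1.84% of reference cells, at median full depths of 8112, 8139.5 and 10052 UMIs, and 17 members, 120 others and 21 reference cells were left out as shallower.

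*pax7a* and *pax7b*, paired-box factors of the dorsal neural tube, were found in 79 and 113 members. The level of *pax7a* was 150 CPM (129 to 173) in members and 26.1 CPM in others, a ratio of 5.73 (4.69 to 7.01). *pax7b* was at 334 CPM (303 to 368) and 113 CPM, a ratio of 2.95 (2.62 to 3.32). *pax3a*, a related gene, was at 316 CPM and 123 CPM, a ratio of 2.56 (2.27 to 2.88). All 3 genes were higher in members with and without the cells carrying other markers.

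*gsx2* was found in 13 members, with at most 6 UMIs, and in 5.74% of other progenitors. Its level was 30.9 CPM (21.9 to 42.4) against 22.9 CPM, which lay between the limits.

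By the correlation of log-normalised UMIs over all 968 progenitors, the genes most like *gsx1* were *lbx1b* (Pearson's r 0.687), *pax7a* (0.469), *pax7b* (0.400), *auts2b* (0.392) and *pax3a* (0.381). For *ptf1a* they included *gsx2* (0.269), *lbx1b* (0.232), *prdm13* (0.219) and *zic2a* (0.201). These values describe cells of 1 library that share its depth, and the low values for *ptf1a* rest on 29 progenitors with a UMI.

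Among the 12 genes with the largest ratio against all others were several outside the list of medial factors. *fabp7a*, a fatty acid-binding protein known from radial glia, was found in 122 members, with 9.5 UMIs in the median and 144 in the highest cell, and its level was 1695 CPM (1623 to 1770) against 472 CPM, a ratio of 3.59 (3.41 to 3.79). *prdm8* was at 95.2 CPM and 29.1 CPM, a ratio of 3.27 (2.60 to 4.09). *wnt7bb*, a Wnt ligand, had a ratio of 3.40, *auts2b* of 3.23, *prss35* of 2.75 and *atp1a1b* of 2.57. Of these, *auts2b* was found in 68.9% of members and *wnt7bb* in 40.9%. Outside these 12, *prdm13*, which in mouse acts downstream of Ptf1a, was found in 26 members at 37.4 CPM against 18.3 CPM, a ratio of 2.04 (1.44 to 2.86).

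The members shared some of these genes unevenly. *si:ch211-251b21.1* had the largest ratio, 13.2 (9.92 to 17.7), with 117 CPM against 8.86 CPM, but was found in 26 members, of which 1 held 34 of its 144 UMIs. *her7*, a Hairy-related repressor known from the segmentation clock, was found in 23 members at 62.6 CPM against 9.94 CPM, a ratio of 6.30 (4.56 to 8.70). *phox2bb*, a homeobox gene of motor and visceral neurons and also on the list of cranial ganglion markers, was found in 38 members and reached 137 CPM (117 to 159) against 40.1 CPM, a ratio of 3.41 (2.81 to 4.11). Its relative *phox2a* had 1 UMI in all members. The 7 cranial ganglion markers summed to 169 CPM in members and 143 CPM in others, with *prph* at 0 in members. These sums include *phox2bb* itself, which gave 137 CPM of the sum in members and 40.1 CPM of that in others. The remaining markers together were thus lower in members. Each of these genes was at 0 in the median member.

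The 12 genes with the lowest ratio against all others were led by the keratin genes *krt91*, *krt5*, *krt4* and *krt92* and the related *cyt1l* and *cyt1*, with *stm*, a gene of the inner ear. All 10 epidermis, 5 otic vesicle and 5 floor plate markers compared were lower in members, where 11.4% of all genes were. Without the cells carrying markers of other tissues, *krt5* had a ratio of 1.22 and *krt4* of 1.08, and 1 of 4 epidermis markers was lower.

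Without these cells *neurog1* had the lowest ratio. It had 11 UMIs in 108 members, 12.8 CPM (6.39 to 22.9), against 271 CPM (257 to 286), a ratio of 0.0472. With all cells it had 44 UMIs, of which 21 lay in 1 member and 11 in another, and its ratio was 0.181, or 0.0954 without the highest member. *casz1*, a zinc-finger gene of dorsal progenitors, was at 12.8 CPM against 106 CPM, a ratio of 0.121. *ntn1a*, a floor plate guidance cue, followed with 0.210, *myca* with 0.277, the cadherin *cdh6* with 0.282, *prdm12b* with 0.298 and *crabp2a*, a retinoic acid-binding protein, with 0.324. *atoh1a*, the proneural gene of the rhombic lip, had 2 UMIs in all 132 members, both in 1 cell, a level of 1.63 CPM (0.197 to 5.88), against 83.5 CPM in all other progenitors.

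Progenitors on either side of the members were then taken as 2 further classes of the same library, whose rules also set *gsx1* and *ptf1a* to 0. The zic-high class has at least 5 UMIs summed over 6 Zic genes, zinc-finger genes of the dorsal neural tube, and no *dbx1*, and held 271 cells. The dbx1-positive class has at least 2 *dbx1* UMIs and held 182 cells. Median depths were 8317 and 7709.5 UMIs. The 6 Zic genes were left out of the comparison with the class that they define. Against zic-high cells 5333 genes were compared, of which 455 were higher in members (8.53%) and 297 lower (5.57%). Against dbx1-positive cells 5420 were compared, with 427 higher (7.88%) and 402 lower (7.42%).

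The levels of most ventral and many dorsal factors in members lay between those of both classes. A gene low in one class reached 10 CPM over a pair of groups only where the other was high, so lists were set in order for genes with at least 10 CPM over all 968 progenitors, without the 6 Zic genes and without regard to counting error. Of 19 ventral factors 16 lay between both classes, 2 below both and 1 above both, where 36.8% of 5634 genes lay between. Dorsal and ventral factors were listed for their known side, and members have no *dbx1* UMI by the rule. Their order was thus partly set by the choice of genes and cells, which the share over all genes does not match. The 16 include genes at or near the zic-high level. In members against zic-high cells, *foxb1b* was at 0.814 and 0.813 CPM and *nkx6.2* at 0.814 and 0.406 CPM. *sfrp5* was at 4.88 and 3.25 CPM and *neurog1* at 35.8 and 35.0 CPM. Of 14 dorsal factors 9 lay between, 4 below both and 1 above both, where 27.1% of all genes lay below both and 36.2% above both. *atoh1a*, *olig4*, *msx2b* and *lmx1bb* were the dorsal factors below both. *atoh1a*, *msx2b* and *lmx1bb* were at 1.63, 4.88 and 1.63 CPM in members against 2.55, 5.75 and 1.92 CPM in dbx1-positive cells. Their order against that class thus rests on a few UMIs. *wnt8b*, a Wnt ligand, was above both, at 26.03 CPM against 19.1 CPM in zic-high and 12.1 CPM in dbx1-positive cells. *olig4*, a bHLH gene, was at 3.25 CPM (0.887 to 8.33) in members against 172 CPM in zic-high and 8.30 CPM in dbx1-positive cells. Of the factors passing 10 CPM over the pair, 12 of 14 dorsal ones were lower than in zic-high cells, where 5.57% of all genes were. Their median ratio was 0.259, against 1.04 over all genes. Of the ventral ones 10 of 15 were lower than in dbx1-positive cells, where 7.42% of all genes were. The median ratio was 0.547, against 1.01. The filter over a pair favours genes that are high in the class compared, so these counts are a description only.

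**Figure D2:**
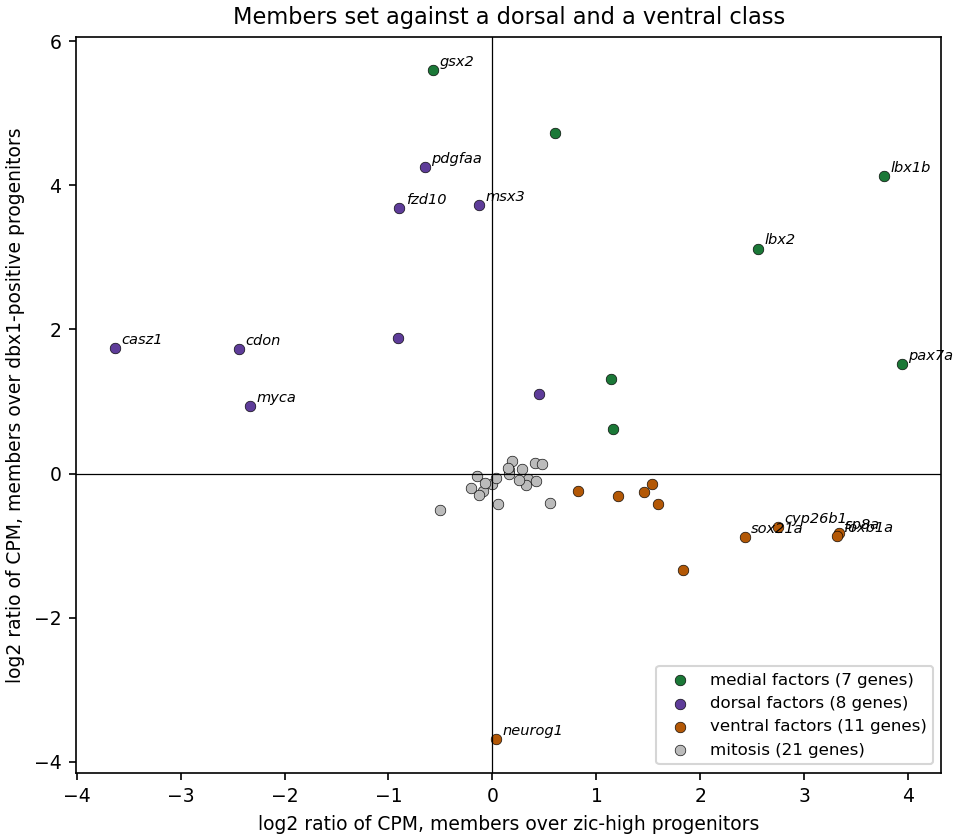
Log2 ratio of CPM of members over zic-high progenitors (horizontal) and over dbx1-positive progenitors (vertical), 1 point for each gene of 4 lists that was compared in both. Medial factors lie mostly at the upper right, dorsal factors at the upper left, ventral factors at the lower right, and genes of mitosis near the origin. *gsx2*, *wnt8b* and *neurog1* stand apart from their lists.

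Individual dorsal genes differed in how close the members came to the dorsal class. *msx3*, a homeobox gene, was found in 124 members at 716 CPM (669 to 765), against 782 CPM in zic-high and 54.3 CPM in dbx1-positive cells. *zic2b* was found in 94 members, with 0 UMIs in the lowest, 3 in the median and 34 in the highest cell. Its level of 511 CPM lay near the 632 CPM of the class cut by Zic genes and far above the 29.4 CPM of dbx1-positive cells. *msx1b* was at 222 CPM against 417 CPM and 60.03 CPM. By contrast, *casz1* was at 17.1 CPM (10.6 to 26.1) against 211 CPM in zic-high and 5.11 CPM in dbx1-positive cells, *cdon*, a coreceptor for Hedgehog, at 42.3 CPM against 229 CPM and 12.8 CPM, and *atoh1a* at 1.63 CPM against 239 CPM and 2.55 CPM. *bmp5*, a dorsal signal, was at 8.14 CPM against 102 CPM in zic-high cells.

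Several ventral genes were present at intermediate levels. *sox21a*, a repressor of the SoxB family, was found in 87 members at 210 CPM (185 to 237), against 39.0 CPM in zic-high and 385 CPM in dbx1-positive cells. The forkhead gene *foxb1a* was found in 74 members at 146 CPM, against 14.6 CPM and 266 CPM. *sp8a*, a zinc-finger gene, was found in 60 members at 135 CPM, against 13.4 CPM and 239 CPM, and *cyp26b1*, which degrades retinoic acid, in 62 members at 199 CPM, against 29.7 CPM and 331 CPM. *sfrp5*, a secreted Wnt inhibitor, was near the dorsal class, at 4.88 CPM (1.79 to 10.6) against 3.25 CPM and 58.1 CPM. *prdm12b*, lower than in all others (67.7 CPM), was near the ventral class. Its level was 31.7 CPM (22.6 to 43.4) in members, 11.0 CPM in zic-high and 35.1 CPM (26.5 to 45.7) in dbx1-positive cells. *neurog1* was at 35.8 CPM, 35.0 CPM in zic-high and 461 CPM in dbx1-positive cells, although 2 members hold most of its UMIs.

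**Figure D3:**
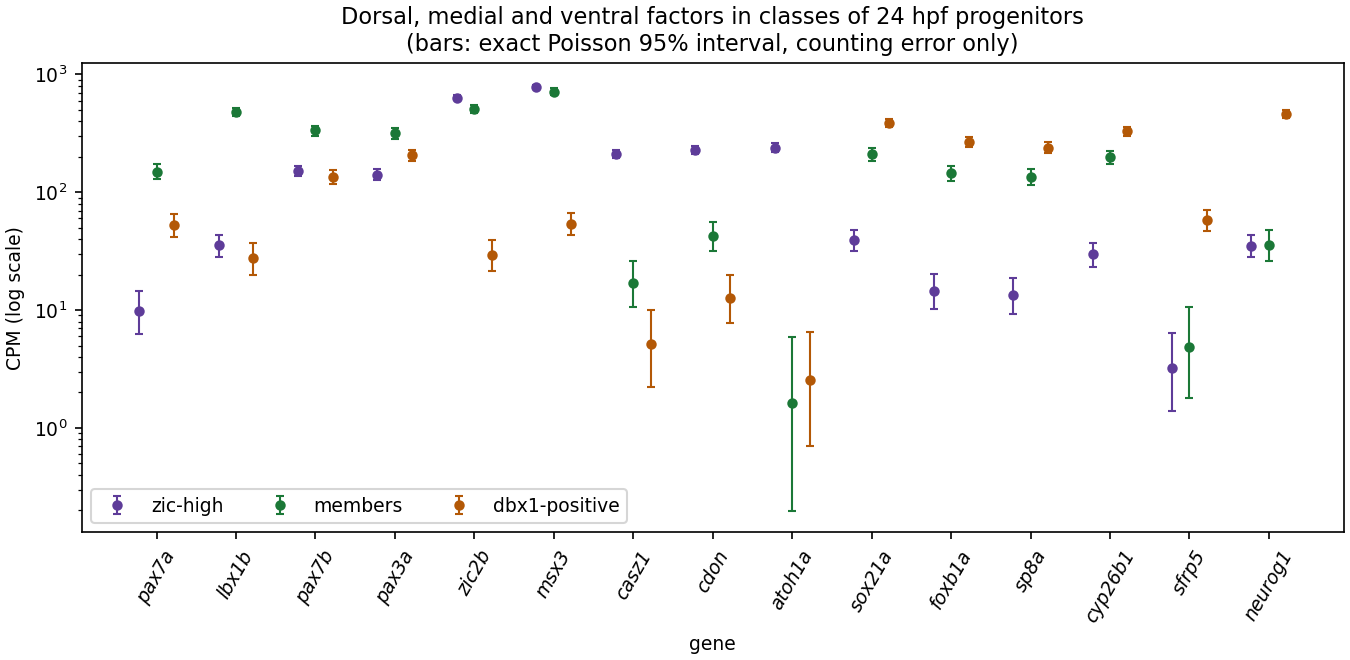
Levels of 15 genes in CPM on a log axis in zic-high progenitors, members and dbx1-positive progenitors, with exact Poisson 95% intervals. *lbx1b* and the Pax genes are highest in members, *zic2b* and *msx3* are close to the zic-high class, and *sox21a*, *foxb1a*, *sp8a* and *cyp26b1* lie between both classes.

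Medial factors were above both classes for 6 of 7 genes with at least 10 CPM over all progenitors, where 36.2% of all such genes were. *pax7a* was 15.3 times higher than in zic-high cells (10.0 to 24.6) and 2.86 times higher than in dbx1-positive cells, and *lbx1b* 13.6 and 17.5 times. *gsx2* differed from its list, with 30.9 CPM in members against 45.9 CPM in zic-high cells and 1 UMI in dbx1-positive cells. Other genes among the 12 largest differences were *sall1a*, at 78.1 CPM against 6.50 CPM in zic-high cells, and *mdkb*, a heparin-binding growth factor, at 564 CPM against 57.5 CPM in dbx1-positive cells. *prdm8* exceeded both classes, 5.45 and 6.21 times, and so did *fabp7a*, 4.12 and 4.05 times. *prdm13* was closer to the zic-high class, at 37.4 CPM (27.4 to 49.9) in members and 26.4 CPM (20.4 to 33.7) in zic-high cells. These intervals overlapped, and the gene was found in 19.7% and 14.8% of cells. In dbx1-positive cells *prdm13* was at 14.0 CPM.

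None of 21 genes of mitosis and none of 21 of DNA replication passed the limits against all other progenitors, with medians of 1.05 and 1.14. Over all genes compared, 3.67% were higher and 11.4% lower, so most genes lay between the limits. The summed level of mitosis genes per cell was 14169 CPM in the median of 132 members and 14506 CPM in that of 836 others, and 14550 CPM and 15171 CPM without the cells carrying markers of other tissues. It ranged from 1508 to 28637 CPM in members and from 0 to 39497 CPM in others. All 6 compared genes of cell cycle exit also lay between the limits, as most genes did. Among genes of neuronal commitment, 4 of 11 were lower and none higher, where 11.4% of all genes were lower and 3.67% higher. *sox11b* had a ratio of 0.642 (0.561 to 0.733) and *neurod4* of 0.623 (0.411 to 0.913). *neurod4* was at 23.6 CPM in members, 18.7 CPM in zic-high and 91.3 CPM in dbx1-positive cells. Of its 29 UMIs in members 10 lay in 1 cell. The 10 neuron markers summed to 832 CPM in members and 667 CPM in others.

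Of 12 Notch ligands, receptors and related genes 3 were lower and none higher, against the same shares of all genes. *dla*, a Delta ligand, was at 298 CPM against 350 CPM, and *notch1a* at 131 CPM against 128 CPM. The Jagged ligand *jag1b* was lower, at 6.51 CPM against 45.6 CPM. Of 18 Her and Hes repressors, which include targets of Notch, 12 lay between the limits, 5 were lower and 1 higher, where 11.4% of all genes were lower and 3.67% higher. The higher gene was *her9*, at 2094 CPM against 1352 CPM, a ratio of 1.55 (1.484 to 1.617), which was 1.480 without cells carrying markers of other tissues. *her3* was at 4.88 CPM against 70.4 CPM in all others and 328 CPM in dbx1-positive cells. The *her4* genes are near-identical copies, so their separate levels are uncertain.

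Several Sox and glial genes were higher. Of 6 Sox progenitor factors compared, 4 were higher than in all others, where 3.67% of all genes were, and 1 was lower, with *sox19b* at 120 CPM against 58.3 CPM (ratio 2.05, 1.69 to 2.47) and *sox5* at 32.5 CPM against 17.4 CPM. Without the cells carrying other markers, 2 of 6 were higher, where 5.36% of all genes were. Of 9 radial glia genes 3 were higher in both comparisons, against the same 3.67% and 5.36% of all genes. They were *fabp7a*, *slc1a3a*, a glutamate transporter, at 78.1 CPM against 37.6 CPM (ratio 2.08, 1.63 to 2.62), and *atp1b4*, at 34.2 CPM against 18.7 CPM. *gfap* was at 287 CPM against 233 CPM. In the lists of signalling, *gas1b*, a Hedgehog coreceptor, had a ratio of 1.61 and *bmpr1ba*, a BMP receptor, of 1.75, while *crabp2a* (0.376) and the Frizzled receptor *fzd8a* (0.125) were lower.

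Within the members, dorsal and ventral genes were found in the same cells. The Zic genes summed to 0 UMIs in 18 members, with a median of 7 and a highest value of 59, and *sox21a*, *foxb1a*, *sp8a* and *cyp26b1* summed to a median of 5 and a highest value of 44. Both sums were above 0 in 98 members (74.2%), and 16 had none of the 4 ventral genes. A single UMI is a low limit. *zic2b* was also found in 14.3% of dbx1-positive and 23.5% of reference cells, and *sox21a* in 14.8% of zic-high and 7.17% of reference cells. The sums were taken in members only, so their share cannot be set against other classes. Over the 132 members *zic2b* correlated inversely with *sp8a* (Pearson's r -0.487) and *pax7a* (-0.308), while *pax7a* and *sp8a* correlated with each other (0.427). The points are cells of 1 library and differ in depth.

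**Figure D4:**
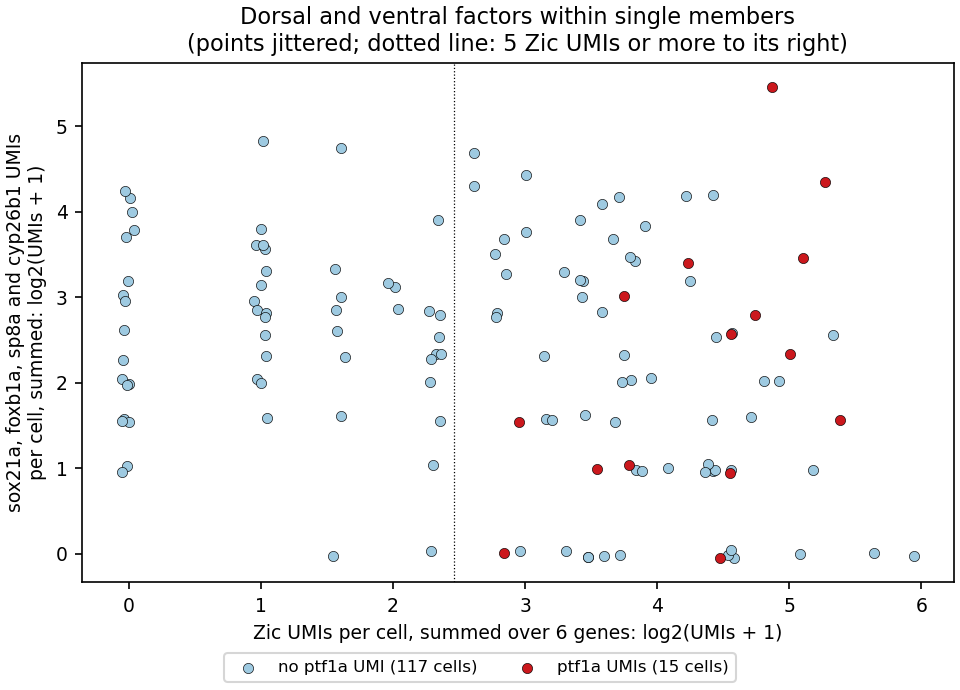
Summed UMIs of 6 Zic genes (horizontal) and of *sox21a*, *foxb1a*, *sp8a* and *cyp26b1* (vertical) in each of 132 members, both as log2 of UMIs plus 1, with the 15 cells with *ptf1a* in red. All 15 lie to the right of the dotted line, at 5 Zic UMIs or more.

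The split at 5 Zic UMIs, chosen after seeing the data, gave 76 members with at least 5 and 56 with fewer. Their median depths were 9090.5 and 6296.5 UMIs, so the split follows depth in part. Of 1859 genes with at least 50 CPM over members, 87 were higher with Zic (4.68%) and 73 lower (3.93%). *sp8a* was at 77.3 CPM against 244 CPM, a ratio of 0.317 (0.228 to 0.438), *pax7a* at 112 CPM against 220 CPM and *foxb1a* at 117 CPM against 199 CPM. *phox2bb* was at 186 CPM against 44.5 CPM, a ratio of 4.17 (2.58 to 7.12). *lbx1b* was at 517 CPM and 412 CPM. With 5000 UMIs drawn from each cell, *sp8a* had a ratio of 0.383 and *phox2bb* of 3.79, between 70 and 45 cells.

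Members with *ptf1a* were few, 15 against 117 without, and had a median of 9664 UMIs against 7731. All 15 had at least 5 Zic UMIs, as did 61 of the 117. Of 1865 genes with at least 50 CPM over members, 87 were higher with *ptf1a* (4.66%) and 199 lower (10.7%). The 15 cells held 170140 UMIs in all, so the ratios of genes near 50 CPM rest on few UMIs. *gsx2* was found in 5 of 15 cells and 8 of 117 (ratio 4.06, 1.97 to 8.12) and *prdm13* at 88.2 CPM against 29.3 CPM (ratio 3.01, 1.51 to 5.75). With 5000 UMIs drawn from each cell, between 13 and 102 cells, *gsx2* had a ratio of 2.94 (0.943 to 7.92) and *prdm13* of 2.62 (0.850 to 6.88), so that both intervals included 1. The Delta ligand *dld* had a ratio of 2.01, *her9* of 2.05 and *gadd45gb.1*, a gene of cells leaving the cycle, of 3.28 but in 3 of 15 cells. In this split *dld* and *her9* were not compared after the draw. *neurod4* had 14 UMIs in 3 of the 15 cells, 10 of them in 1 cell. *sp8a* was at 35.3 CPM against 151 CPM (ratio 0.233) and *foxb1a* at 76.4 CPM against 157 CPM. After the draw their ratios were 0.194 (0.0231 to 0.723) and 0.529 (0.189 to 1.20). The interval of *foxb1a* thus included 1. Both genes were also lower in members with at least 5 Zic UMIs, as all 15 had. The part of Zic level in these ratios was not tested. *lbx1b*, at 570 CPM against 466 CPM, lay between the limits.

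Along the anteroposterior axis, cells were given a segment from UMIs of Hox genes, *egr2b*, *mafba* and the *eng2* genes. Calls of r2, r3 and r6 also required that markers of other segments were absent. Calls of r5 required *egr2b* together with *mafba*, *hoxa3a*, *hoxb3a* or *hoxd3a*. The calls thus depend on the depth of a cell. Of 132 members 16 were given to rhombomere (r) 2, 16 to r3, 5 to r4, 12 to r5, 7 to r6 and 27 to r7, 1 to the midbrain-hindbrain boundary and r1, 43 to none and 5 to more than 1. The share of r7 was 20.5% (13.9 to 28.3) in members and 23.2% (20.4 to 26.2) in the 836 others. The shares of r3 were 12.1% (7.09 to 18.9) and 11.8% (9.73 to 14.2).

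Segments with at least 10 members differed in some genes. Median depths were 8515.5 UMIs in members of r2, 8157 in r3, 11430.5 in r5 and 8175 in r7. The counts of cells below, with all UMIs, were thus not taken at equal depth. *si:ch211-251b21.1* was found in 13 of 27 members of r7, with 84 of its 144 UMIs, and in 1 of 16 of r2, none of r3 and 1 of 12 of r5. *her7* was found in 1 of 27 members of r7 and 5 of 12 of r5, at 4.53 CPM (0.115 to 25.3) and 160 CPM (104 to 236). The level of *sp8a* was 263 CPM (200 to 340) in r7, 121 CPM (72.6 to 188) in r2, 54.2 CPM (24.8 to 103) in r3 and 19.2 CPM (3.96 to 56.1) in r5, and that of *sox21a* 376 CPM in r7 and 54.2 CPM in r3. At least 5 Zic UMIs were found in 14 of 16 members of r3, 10 of 12 of r5, 8 of 16 of r2 and 14 of 27 of r7. *egr2b*, a gene of r3 and r5 that was also used to give those segments, was found in 27 of the 76 members with 5 or more Zic UMIs and in 4 of the 56 with fewer. Zic level and segment thus varied together within the members, and the part of each in the differences above was not tested. Segments r2, r3, r5 and r7 each held *gsx1* and *lbx1b*, *lbx1b* at 254 CPM (181 to 345), 295 CPM (218 to 390), 346 CPM (260 to 451) and 658 CPM (555 to 774).

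Across stages, shares were compared with 2000 UMIs drawn from each cell, which left out 691 cells of 44 hpf, with progenitors taken as cells with at least 2 *sox3* and no *elavl3* UMI. Progenitors with *gsx1* or *ptf1a* and without *dbx1* made up 6.66% (5.40 to 8.11) at 16 hpf, 12.8% (10.6 to 15.19) at 24 hpf and 18.4% (15.099 to 21.99) at 44 hpf. *gsx1* itself was found in 6.95%, 12.3% and 14.8% of progenitors, and the interval of 24 hpf (10.2 to 14.7) overlapped that of 44 hpf (11.9 to 18.2). *gsx2* was found in 0.362%, 3.40% (2.29 to 4.84) and 12.1% (9.41 to 15.3). *ptf1a* was found in 0 of 1381 progenitors at 16 hpf, which allows a share of cells with a UMI at this draw of up to 0.217%, in 0.937% (0.405 to 1.84) at 24 hpf and in 5.86% (3.99 to 8.26) at 44 hpf. In reference cells the shares of *gsx1* were 0%, 1.37% and 1.11%, those of *ptf1a* were 0% at all stages, and at 24 hpf *gsx2* was in 0.341%. Full median depths were 10123, 7797.5 and 3074.5 UMIs in progenitors and 9045, 10052 and 5049 in reference cells. Stage cannot be told apart from library or, at 24 hpf, from growth temperature.

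**Figure D5:**
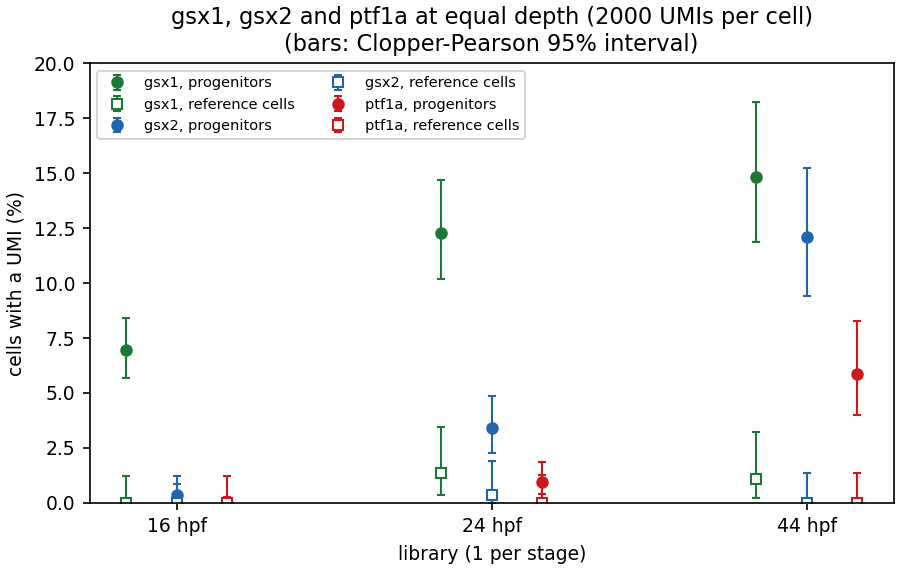
Share of cells with a UMI of *gsx1*, *gsx2* or *ptf1a* in progenitors (filled) and reference cells (open) of the 3 libraries, after drawing 2000 UMIs per cell, with Clopper-Pearson 95% intervals. The shares of *gsx2* and *ptf1a* in progenitors are highest at 44 hpf, and those of reference cells are all below 2%.

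With the rule as given and all UMIs, 119 of 1575 progenitors were chosen at 16 hpf and 82 of 534 at 44 hpf, and 0 and 22 of them had *ptf1a*. In these cells *lbx1b* was at 409 CPM (375 to 446) at 16 hpf, 481 CPM at 24 hpf and 563 CPM (479 to 656) at 44 hpf. In the other progenitors of the same stages it was at 83.9, 54.6 and 96.1 CPM. The rule kept the same UMI limits at each stage although median depth fell, and *gsx1* in the chosen cells was at 422, 958 and 1400 CPM. At 24 hpf *lbx1b* was higher in members with more UMIs of the rule genes. The part of this choice of cells in the rise of *lbx1b* across stages was not tested. *zic2b* was at 195, 511 and 62.5 CPM in cells by the rule and at 248, 245 and 35.1 CPM in the others, and *pax7b* at 135, 334 and 69.5 CPM and at 44.1, 113 and 39.3 CPM. Some genes changed across stages in the same direction in both groups. *fabp7a* was at 258, 1695 and 9023 CPM in cells by the rule and at 92.7, 472 and 3879 CPM in the others. *pcna*, a gene of DNA replication, was at 1634 CPM (1565 to 1705), 1411 CPM and 76.4 CPM (47.9 to 116) in cells by the rule and at 1579, 1332 and 195 CPM in the others. By contrast, *her7* fell steadily in the others only. Its level was 43.3 CPM (32.7 to 56.3), 62.6 CPM and 55.6 CPM (31.8 to 90.3) in cells by the rule. In the others it was 17.5, 9.94 and 3.02 CPM, the last from 5 UMIs. *si:ch211-251b21.1* had no UMI in either group at 16 hpf and was at 917 CPM (810 to 1035) and 205 CPM at 44 hpf. Median depths were 10751, 8112 and 2967.5 UMIs.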

How the data were processed

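The authors deposited raw UMI counts of 27282 genes for every cell of each stage, made, per the paper's methods and the submitters' processing notes, with Cell Ranger on GRCz10 and Ensembl 89 gene models from 10x Chromium 3′ v2 libraries. Counts were used as deposited, without removal of cells or correction for free RNA. Doublets were not called. Members were found by the rule on raw counts, UMIs were summed over the cells of a group and scaled to CPM, and ratios were called at 1.5. Genes needed 10 CPM over both groups, or 50 CPM over members for splits of members. Shares are with all UMIs or after drawing 5000, or across stages 2000, UMIs from each cell. A count of 0 was read as allowing up to 3 counts. Named genes are those of the gene lists with at least 10 CPM, the 12 of largest ratio in each direction with at least 50 CPM in the higher group and 10 UMIs in the lower, without mitochondrial, ribosomal and haemoglobin genes, and the 5 most like *gsx1* and *ptf1a*. Some genes that this rule would name are not reported here. Members, lists and comparisons were chosen with earlier results of these data known. With 1 library for each stage no p-value was computed, and a planned comparison of *gsx1*-only with *ptf1a*-only members was replaced by splits at *ptf1a* and at Zic UMIs chosen after seeing the data. The order of lists over 3 classes of progenitors was also added after seeing the data. Ratios were tested on simulated data. Python 3.11.15, numpy 2.4.6, scipy 1.17.1 and pandas 2.3.3 were used.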

Additional observations from a re-analysis of the deposited data

How the results depend on the processing

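The share of members was 11.3% of 943 progenitors when at least 3 UMIs of *gsx1* and *ptf1a* were asked for, and kept within its interval under the other alternatives (13.6% to 14.5%). The number of lower genes was 370 without cells carrying markers of other tissues, and that of higher genes 384 with 5000 UMIs drawn from each cell. With at least 20 CPM they were 95 higher and 313 lower genes, and with at least 1 UMI 2457 and 7546. Without cells carrying markers of other tissues, the ratios of *s100a10b* (1.07), *krt5* (1.22), *cyt1* (1.06), *krt4* (1.08), *krt92* (1.34), *mid1ip1a* (1.35) and *icn2* (1.21) turned above 1. By its construction this alternative leaves out the cells rich in keratin UMIs. With 5000 UMIs drawn from each cell, *sox21a* in members with *ptf1a* over those without turned from 1.53 to 0.835. Of the 51 *sox21a* UMIs in members with *ptf1a*, 21 lay in 1 cell, and without outlying cells the ratio was 1.13. The cause of the turn was not tested. Scaling by the median of ratios moved all ratios by 0.01 on the log2 scale. The shares at each stage stayed within their intervals under the rule as given, with 1500 UMIs drawn or without outlying cells. A comparison of *gsx1*-only with *ptf1a*-only members was not run, since 2 cells had *ptf1a* alone, nor were its alternatives. No paired analysis was possible because each stage is 1 library without a replicate. Counting limits genes at a few UMIs, such as *atoh1a*, *gsx2* and *ptf1a*, most, and variation between embryos was not measured.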
